A study of Mus musculus with 2 samples.

Results

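Interferon-induced genes were followed through the cells of mouse pancreatic islets. The group holds 39 of the 27998 genes in the deposited tables, taken by symbol: antiviral effectors, sensors of foreign nucleic acid, transcription factors of the response, GTPases and membrane proteins, and the ligand gene Ifnb1. Islets from C57BL/6 mice at postnatal day 70 were dissociated with trypsin and captured as single cells, with 1 library from wild type mice and 1 from mice carrying a beta cell specific miR-503 transgene. The sources used here name neither the promoter driving the transgene nor the number and sex of the animals pooled. A single library per genotype allows no test between genotypes, and every 95% interval below covers counting error only.

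Type I interferons are secreted when cells sense viral or misplaced nucleic acid. They bind a receptor present on nearly all nucleated cells and act through a complex with STAT2 and IRF9 on the interferon-stimulated response element (ISRE) in front of antiviral genes. Interferon gamma, made mainly by lymphocytes, acts through a different motif, the gamma-activated site (GAS). In islets the response is known above all from viral infection and from the insulitis that precedes autoimmune diabetes.

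Upstream sequence of 6 members is shown because the motifs of both pathways can be read in it. All stretches are from RefSeq on mouse build GRCm38.p6 and end at the base before the transcript start. Capitals mark ISRE letters (GAAA, any 2 bases, GAAA) in Ifit1, Isg15, Rsad2 and Gbp2, GAS letters (TTC, any 3 bases, GAA) in Irf1, and NF-kB letters (GGGA, any 2 bases, TTCC) in Ifnb1, each searched on both strands.
Ifit1, chr19:34640769-34640888, plus strand: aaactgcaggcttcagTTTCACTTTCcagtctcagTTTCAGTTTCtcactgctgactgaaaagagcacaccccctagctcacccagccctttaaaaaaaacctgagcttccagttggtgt
Isg15, chr4:156200819-156200938, minus strand: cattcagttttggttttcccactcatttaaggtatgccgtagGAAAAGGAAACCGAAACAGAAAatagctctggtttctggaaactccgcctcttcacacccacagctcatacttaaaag
Rsad2, chr12:26456453-26456592, minus strand: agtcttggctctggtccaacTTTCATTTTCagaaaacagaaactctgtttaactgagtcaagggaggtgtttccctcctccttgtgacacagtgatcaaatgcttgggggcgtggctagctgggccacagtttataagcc
Gbp2, chr3:142620543-142620662, plus strand: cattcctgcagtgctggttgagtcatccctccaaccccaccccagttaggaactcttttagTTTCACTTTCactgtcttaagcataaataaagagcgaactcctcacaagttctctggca
Irf1, chr11:53769894-53770013, plus strand: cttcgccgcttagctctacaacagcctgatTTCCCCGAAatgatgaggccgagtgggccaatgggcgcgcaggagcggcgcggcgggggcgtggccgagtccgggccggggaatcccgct
Ifnb1, chr4:88522795-88522954, minus strand: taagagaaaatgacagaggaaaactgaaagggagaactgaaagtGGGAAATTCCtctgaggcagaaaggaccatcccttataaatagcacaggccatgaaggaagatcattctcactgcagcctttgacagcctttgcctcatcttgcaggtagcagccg
Of the 39 members, 29 had an entry in the RefSeq promoter table. The ISRE letters lay within 250 bases before the start of 13 of these 29 (44.8%), against 3.46% of all 27025 genes in that table, searched over the same length. Isg15 held 3 overlapping copies, and Ifit1, Ifit3, Gbp3, Oas1a and Bst2 held 2 each. The GAS letters were found in 6 of 29 members (20.7%, against 8.13% of genes), namely Bst2, Eif2ak2, Gbp7, Ifit2, Irf1 and Oas1a. NF-kB letters were found in 3 of 29 (10.3%, against 1.36%): Ifit2, Ifitm3 and Ifnb1. These matches describe letters in a window and were not tested as binding sites.

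Cells were classed from marker UMIs (unique molecular identifiers, 1 per captured transcript). Macrophages had at least 10 UMIs of C1qa, C1qb and C1qc together, endothelial cells at least 10 UMIs of 8 vascular genes, beta cells at least 25% of UMIs from Ins1 and Ins2, alpha cells at least 3% from Gcg and delta cells at least 2% from Sst. Rules for B cells (at least 10 UMIs of Cd79a, Cd79b, Ms4a1 and Ly6d) and T cells (at least 5 UMIs of T cell genes) were applied as well. A cell meeting more than 1 of all these rules was left unclassed. The wild type library gave 69 macrophages, 103 endothelial, 3096 beta, 494 alpha and 146 delta cells, and the transgenic library gave 41, 26, 2506, 680 and 248. Total depth was 104677537 and 109243270 UMIs, and 25 barcodes occurred in both libraries. Macrophages expressed all 9 macrophage markers, 8 of them at 20 or more CPM (UMIs of a gene scaled to the same fixed total in every class), with T cell markers at 0. The endothelial class also held stellate cell markers, at 1685 CPM in the wild type and 1661 CPM in the transgenic library, and macrophage markers at 106 and 1207 CPM.

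Per cell, macrophages and endothelial cells held more UMIs of the members than the endocrine classes did. Levels are given as CPM outside 5 hormone genes (Ins1, Ins2, Gcg, Sst and Ppy), since hormones fill a different part of each class. Among the 5 classes, 28 of 39 members were highest in macrophages in the wild type library and 28 in the transgenic library. In the wild type library the interval of the macrophage level lay above that of the next class for 24 of these 28, and in the transgenic library, with fewer macrophages, for 11. Summed over all members, a wild type macrophage held a mean of 141 UMIs and a wild type endothelial cell 55.6, against 9.61 in a beta cell, 10.5 in an alpha cell and 7.47 in a delta cell. In the transgenic library these means were 77.4, 61, 7.85, 9.02 and 7.35, so the macrophage value differed most between the libraries.

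**Figure D1:**
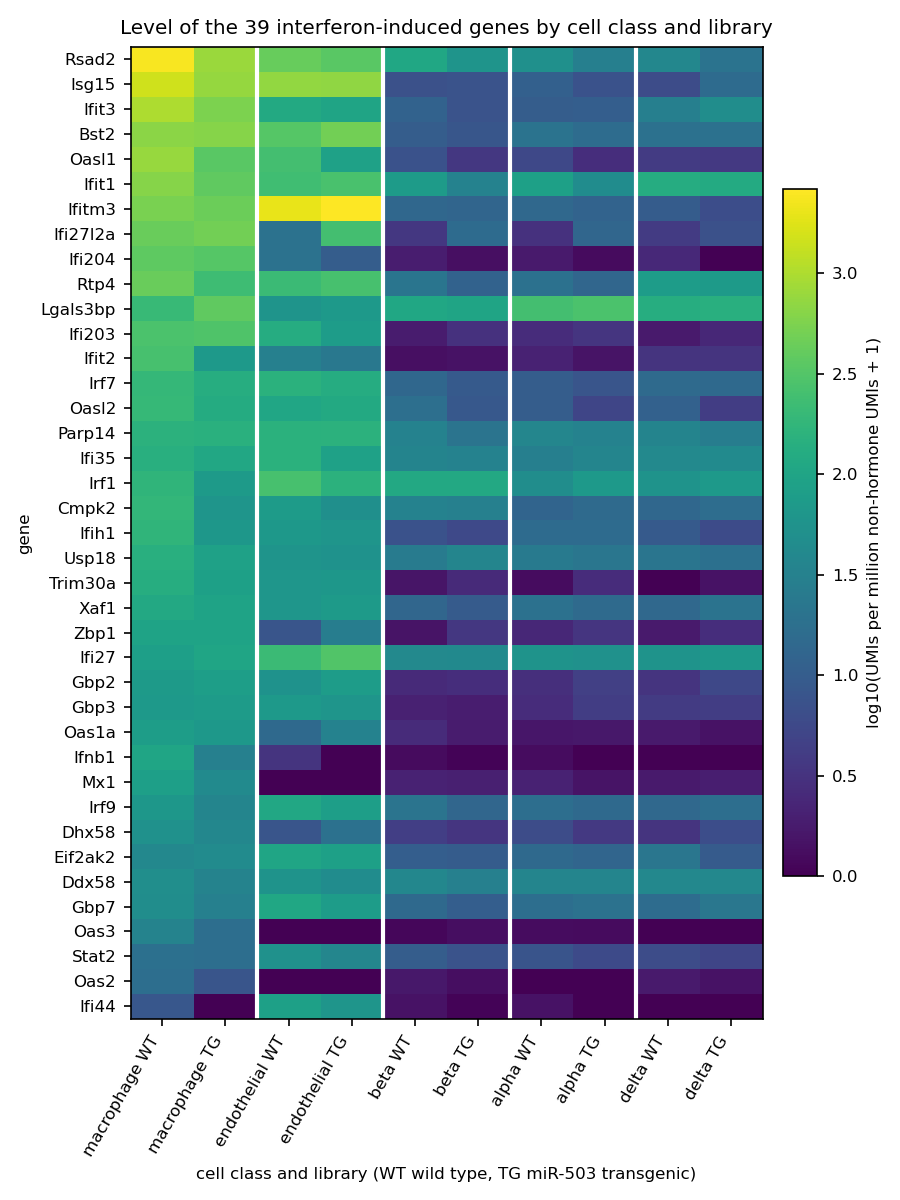
Level of each of the 39 interferon-induced genes (rows, ordered by their mean macrophage level) in 5 cell classes of the wild type (WT) and miR-503 transgenic (TG) library, as log10 of CPM outside hormone genes plus 1. Most rows are brightest in the macrophage columns, while Ifitm3, Ifi44 and Irf1 are brightest in endothelial cells and Lgals3bp stands out in alpha cells.

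Members differed in how they were shared among the classes. Rsad2 (viperin, an antiviral enzyme of the endoplasmic reticulum) was at 2393 CPM in wild type macrophages, 417 in endothelial, 109 in beta, 51.1 in alpha and 37.3 in delta cells. Isg15 (a ubiquitin-like modifier) was at 1488 and 728 CPM in wild type macrophages and endothelial cells and at 6.04, 10.0 and 5.22 CPM in beta, alpha and delta cells. Its endocrine level was thus at most 0.67% of the macrophage level in that library, whereas Ifit1 (which binds viral RNA lacking host cap marks) reached 11.7%, 13.6% and 20.6% of its macrophage level there. Ifit2, a relative of Ifit1, was at 0.15% of its macrophage level in wild type beta cells. The sensor gene Ddx58 (RIG-I) was almost even, at 48.1, 56.0, 37.5, 34.5 and 38.0 CPM over macrophage, endothelial, beta, alpha and delta cells, and the first 2 of these did not differ beyond their intervals.

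Endothelial cells led for a smaller set. Ifitm3 (a membrane protein that blocks viral fusion) was at 1990.2 CPM in wild type and 2618 CPM in transgenic endothelial cells, against 543 and 441 in macrophages. Ifi44 was at 88.0 and 58.9 CPM in endothelial cells and at 7.40 and 0 CPM in macrophages. Irf1 (a transcription factor induced by interferon gamma as well as type I interferon) was at 264 CPM in wild type endothelial cells, 171 in macrophages and 113 in beta cells. Mx1, Oas2 and Oas3 had no UMI in the endothelial cells of either library. Lgals3bp, a secreted glycoprotein, had its highest wild type level in alpha cells, 246 CPM, which did not differ beyond the intervals from its 202 CPM in macrophages.

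RNA freed from broken macrophages can add UMIs to other cells. As a gauge, the 8 macrophage markers with at least 20 CPM in macrophages reached 0.219% to 1.13% of their macrophage level in wild type beta cells. The other marker, Mrc1, had 2 UMIs in the macrophages of each library and was left out of the gauge. The beta level of 26 of 39 members lay above that range, counting error included. The 13 that did not were Ifit2, Ifit3, Isg15, Oasl1, Oas3, Mx1, Ifi27l2a, Ifi203, Ifi204, Gbp3, Trim30a, Zbp1 and Ifnb1. This gauge covers RNA of macrophages only, and 10 members were highest in endothelial cells in the wild type library. Among the 26, Ifitm3 was at 12.9 CPM in wild type beta and 1990 CPM in endothelial cells, and Ifi44 at 0.475 and 88.0 CPM. The part of endothelial RNA in the beta levels was not tested. In transgenic beta cells the markers reached 0.0881% to 1.02%, and 24 members lay above. In wild type endothelial cells the markers reached at most 1.22%, and 35 members lay above, the exceptions being Oas2, Oas3, Mx1 and Ifnb1. In wild type alpha cells the markers reached 0.137% to 1.31% and 22 members lay above, and in wild type delta cells they reached at most 0.892% and 21 members lay above.

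The ligand gene was Ifnb1. Of 21 interferon genes in the tables, 4 had any UMI in the kept cells: Ifnb1 with 103 wild type and 15 transgenic UMIs, Ifng with 2 and 10, Ifnab with 2 and 1, and Ifna16 with 1 and 0. Most Ifnb1 UMIs were in macrophages, 82 in 14 of 69 wild type cells (20.3%) and 13 in 7 of 41 transgenic cells (17.1%). Wild type beta cells held 10 Ifnb1 UMIs in 10 of 3096 cells. Much of the difference lay in a few cells. In the wild type library 5 macrophages with 33, 12, 12, 8 and 7 UMIs held 72 of the 82 (87.8%), and in the transgenic library the highest cells had 6 and 2. Scaled by TMM (trimmed mean of M values, which sets the bulk of genes level between the 2 sums), the log2 ratio of transgenic to wild type was −1.69 (−2.66 to −0.84). Without the macrophage with 33 UMIs it was −0.96 (−1.96 to −0.05), on 49 and 13 UMIs.

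Macrophages with Ifnb1 had more antiviral RNA. A core of 20 antiviral members (Ifit1, Ifit2, Ifit3, Isg15, Rsad2, Oasl1, Oasl2, Oas1a, Oas2, Oas3, Irf7, Mx1, Ifi44, Usp18, Cmpk2, Rtp4, Zbp1, Dhx58, Ddx58 and Ifih1) was summed in each cell. Wild type macrophages with an Ifnb1 UMI held 70 to 462 core UMIs, median 203.5, and those without held 0 to 299, median 34. Transgenic macrophages with an Ifnb1 UMI held 18 to 135, median 49, and those without 2 to 209, median 22.5. The ranges overlapped in both libraries, but no wild type macrophage with Ifnb1 had fewer than 70 core UMIs. Median depth was alike, at 10909 and 10762 UMIs in the wild type and 11879 and 10248.5 in the transgenic macrophages. These cells come from 1 library per genotype and are not replicates.

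**Figure D2:**
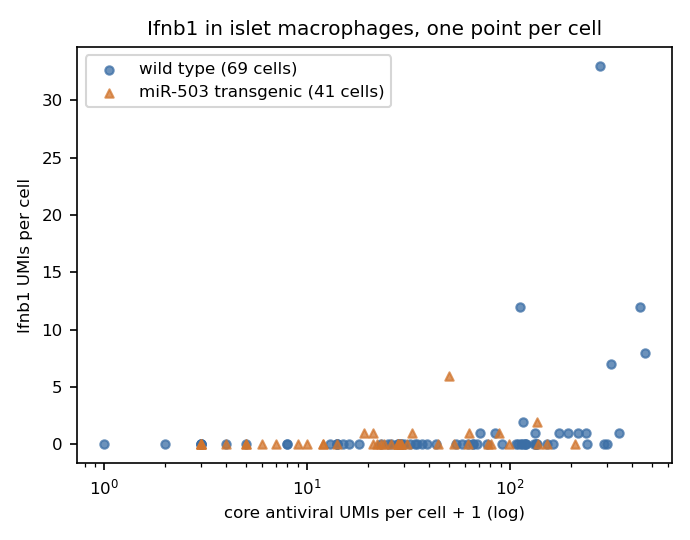
Ifnb1 UMIs against UMIs of the 20 core antiviral genes plus 1 (log axis) in each macrophage, 69 from the wild type (circles) and 41 from the transgenic library (triangles). The wild type cells with 33, 12, 12, 8 and 7 Ifnb1 UMIs all lie at more than 100 core UMIs.

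Transgenic macrophages had less of the antiviral effectors. Over macrophages 35 of 39 members had at least 50 UMIs, the minimum for a ratio to be counted, and 16 of them were at least 1.5-fold lower in the transgenic library, where 11.6% of all 2567 such genes were. One member, Lgals3bp, was at least 1.5-fold higher (1 of 35, against 10.6% of all genes). The median log2 ratio of the 35 was −0.52, beside 0.07 over all genes. Intervals lay below 0 for 17 members, where they did for 10.3% of all genes, and above 0 for 1, where they did for 15.9% of all genes. The 4 members with fewer UMIs were Oas2, Oas3, Stat2 and Ifi44. The macrophages of the 2 libraries also differed in a marker, with Lyz2 (lysozyme) at 1631 CPM in the wild type and 12780 CPM in the transgenic library, while Cd74 was at 42733 and 41810 CPM. Over all 9 macrophage markers the sums were 49211 and 61867 CPM of all UMIs. The part of macrophage state in the members' ratios was not tested.

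Members of the IFIT family, which binds viral RNA, were lower in transgenic macrophages. Ifit2 had 215 wild type and 29 transgenic UMIs, 265 and 67.3 CPM, a log2 ratio of −1.93 (−2.54 to −1.36). Ifit3 had 809 and 236 UMIs (log2 ratio −0.81, −1.03 to −0.60), of which 75 of the transgenic UMIs came from 1 cell. Ifit1 had 511 and 164 UMIs (−0.68, −0.94 to −0.42). Of the 3, Ifit2 was the lowest.

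Rsad2 and Cmpk2 (a mitochondrial nucleotide kinase) were lower to the same degree. Rsad2 had 1940 and 341 UMIs in macrophages, in 52 and 24 cells, a log2 ratio of −1.55 (−1.72 to −1.38). Cmpk2 had 148 and 26 UMIs (−1.55, −2.21 to −0.94). Isg15 had 1206 and 322 UMIs, 1488 and 747 CPM, a log2 ratio of −0.94 (−1.12 to −0.76). Usp18, the protease that removes ISG15 and damps the receptor, had 115 and 38 UMIs (−0.64, −1.20 to −0.09).

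Members of the OAS family, which activate RNA decay or are related to enzymes that do, were lower in macrophages by varying amounts. Oasl1 had 638 and 151 UMIs, a log2 ratio of −1.12 (−1.38 to −0.86). Oasl2 was at −0.56 (−1.03 to −0.10), and the interval of Oas1a, at −0.21, spanned 0 (−0.90 to 0.46). Of the cytoplasmic RNA sensors, Ifih1 (MDA5) had 137 and 27 UMIs (−1.38, −2.03 to −0.78), and the intervals of Ddx58 (−0.52) and Dhx58 (−0.43) spanned 0. Of the transcription factors, Irf1 had 139 and 31 UMIs (−1.20, −1.81 to −0.63). Irf7, which amplifies interferon production, was at −0.45, its interval reaching from −0.92 to just below 0, and Irf9 at −0.80 (−1.74 to 0.05).

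Other members were near 0 or higher in transgenic macrophages. Bst2 (tetherin, which holds budding viruses at the membrane) had 539 and 272 UMIs, a log2 ratio of −0.02 (−0.24 to 0.19). Parp14 was at −0.03 and the DNA-binding Ifi203 and Ifi204 at 0.14 and −0.13, with intervals that spanned 0. The guanylate-binding proteins Gbp2 and Gbp3, known interferon gamma targets, were at 0.21 and 0.13, and their intervals spanned 0. Lgals3bp had 164 and 166 UMIs in 69 and 41 cells, 202 and 385 CPM, a log2 ratio of 0.98 (0.66 to 1.30). A single transgenic macrophage held 61 of those 166 UMIs, and without it the log2 ratio was 0.40, under the 1.5-fold limit, so that no member was higher by that much.

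**Figure D3:**
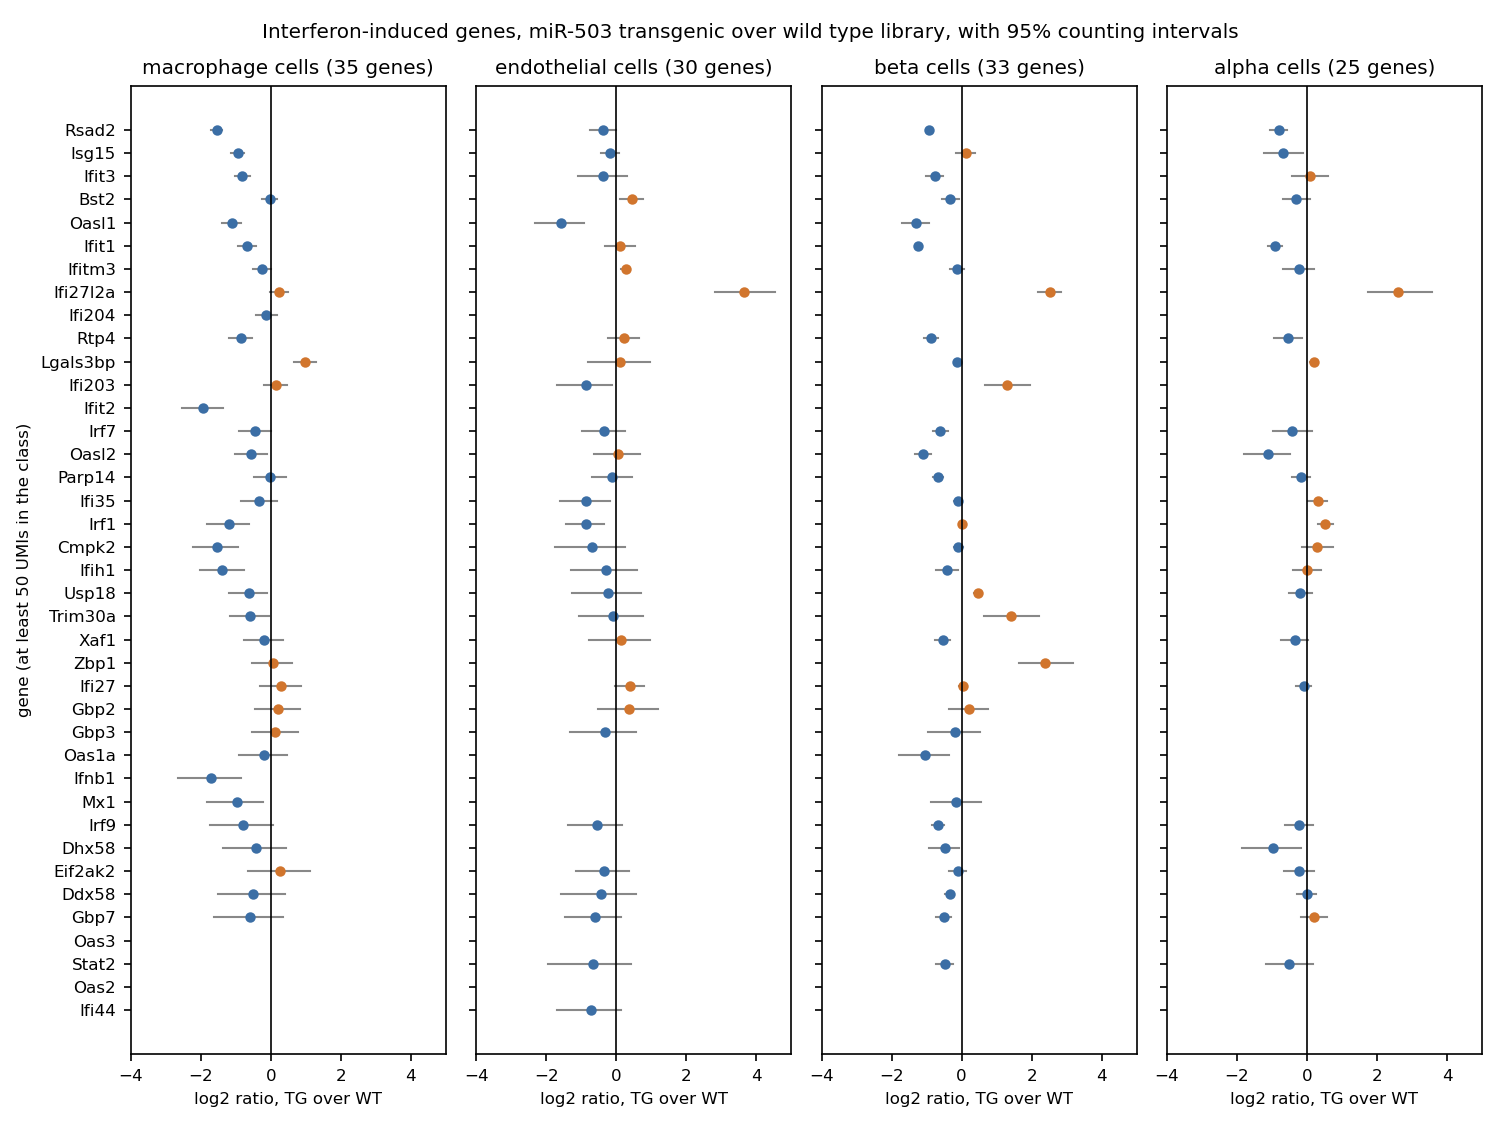
Log2 ratio of transgenic to wild type for members with at least 50 UMIs in macrophages, endothelial, beta and alpha cells, scaled by TMM, with 95% counting intervals (bars) and points coloured by direction. Rsad2, Oasl1, Ifit1 and Rtp4 are below 0 in both macrophages and beta cells, and Ifi27l2a is the highest member in beta, alpha and endothelial cells. The beta level of Oasl1 lies within the range of the macrophage markers.

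Transgenic beta cells also had less of several antiviral effectors, and more of 4 other members. Over beta cells 33 of 39 members had at least 50 UMIs. At least 1.5-fold lower were 10 of them, where 4.29% of all 12818 genes were, and 4 were at least 1.5-fold higher, where 5.72% of all genes were. The median log2 ratio was −0.32, beside −0.02 over all genes. The 10 lower members were Oasl1, Ifit1, Oasl2, Oas1a, Rsad2, Rtp4, Ifit3, Irf9, Parp14 and Irf7. Both genotype comparisons use the same 2 libraries, so the macrophage and beta values are set side by side and are not independent of each other.

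Ifit1 had 2789 UMIs in 1251 wild type and 976 UMIs in 635 transgenic beta cells, 73.6 and 31.3 CPM, a log2 ratio of −1.23 (−1.34 to −1.13). Rsad2 had 4133 and 1791 UMIs, 109 and 57.4 CPM, a log2 ratio of −0.93 (−1.01 to −0.85). Both were thus lower in beta cells as in macrophages. Oasl2 had 637 and 245 UMIs (−1.10, −1.32 to −0.88) and Oasl1 237 and 79 (−1.30, −1.69 to −0.93). Rtp4, a chaperone of receptors with antiviral effects, had 762 and 343 UMIs (−0.87, −1.06 to −0.68). Ifit3 had 419 and 202 UMIs in beta cells (−0.77, −1.02 to −0.53). In both libraries the beta levels of Ifit3 and Oasl1 did not lie above the range of the macrophage markers, counting error included. Neither did that of Oas1a in the transgenic library.

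Parp14 (an ADP-ribosyltransferase) had 1199 and 622 UMIs in beta cells, a log2 ratio of −0.67 (−0.81 to −0.52). Of the STAT2 and IRF9 pair that drives ISRE genes, Irf9 had 751 and 387 UMIs (−0.68, −0.86 to −0.50) and Stat2 350 and 206 (−0.48, −0.74 to −0.23). Irf7 had 483 and 261 (−0.61, −0.83 to −0.39). Xaf1, a proapoptotic protein, was at −0.54 (−0.76 to −0.32) and Gbp7 at −0.51 (−0.72 to −0.30), just inside the 1.5-fold limit. Ddx58 had 1422 and 926 UMIs, a log2 ratio of −0.34 (−0.46 to −0.22).

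Several members that were lower in transgenic macrophages were not lower in beta cells beyond counting error. Irf1 had 4292 and 3579 UMIs, 113 and 115 CPM, a log2 ratio of 0.02 (−0.05 to 0.08). Cmpk2 had 1212 and 936 UMIs (−0.09, −0.22 to 0.03), beside −1.55 in macrophages. Isg15 had 229 and 204 UMIs (0.11, −0.17 to 0.39), also within the range of the macrophage markers in the wild type. Usp18 had 965 UMIs in 771 wild type and 1100 UMIs in 830 transgenic beta cells, 25.5 and 35.2 CPM, a log2 ratio of 0.47 (0.34 to 0.60). Ifi27, Ifi35, Eif2ak2 (PKR, which halts translation) and Ifitm3 lay between −0.12 and 0.04, with intervals that included 0.

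The 4 higher members in transgenic beta cells were Ifi27l2a, Zbp1, Trim30a and Ifi203, all 4 scarce there. Ifi27l2a had 96 UMIs in 74 wild type and 452 UMIs in 378 transgenic beta cells, 2.53 and 14.5 CPM, a log2 ratio of 2.52 (2.20 to 2.85). Zbp1 (a sensor of Z-form nucleic acid) had 19 and 81 UMIs (2.37, 1.64 to 3.18), Trim30a 22 and 48 (1.41, 0.65 to 2.21) and Ifi203 32 and 65 (1.30, 0.67 to 1.96). In transgenic macrophages the same 4 were at 0.23, 0.05, −0.60 and 0.14. The wild type beta levels of all 4 lay within or below the range of the macrophage markers.

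Ifi27l2a was also higher in other classes of the transgenic library. In alpha cells it had 13 and 96 UMIs (log2 ratio 2.60, 1.76 to 3.56). In endothelial cells it had 16 UMIs in 2 of 103 wild type and 55 UMIs in 6 of 26 transgenic cells (3.64, 2.82 to 4.54), and 15 of the 16 came from 1 cell. In delta cells it had 4 and 13 UMIs. Its highest levels were in B cells (cells with at least 10 UMIs of Cd79a, Cd79b, Ms4a1 and Ly6d), 641 CPM in 22 wild type and 1136 CPM in 55 transgenic cells. Of the 4 B cell markers, 3 moved with it in beta cells, where Ly6d had 38 and 196 UMIs, Ms4a1 13 and 74 and Cd79b 23 and 106. The fourth, Cd79a, did not, with 3850 and 3036 UMIs in beta cells, 102 and 97.3 CPM, or 8.05% and 7.92% of its B cell level. Beta cells with at least 10 UMIs of the 4 markers together were left unclassed, so the beta levels of these markers are capped by the rule. The highest classed beta cell held 9 Cd79a UMIs in each library. The T cell gene Cd3d had 5 and 75 UMIs in beta cells. The beta level of Ifi27l2a was 0.395% and 1.27% of its B cell level, beside 0.0764% to 0.112% in the wild type and 0.557% to 0.863% in the transgenic library for Ly6d, Ms4a1 and Cd79b. Zbp1 was at 0.512% and 2.68% of its B cell level in beta cells, Trim30a at 0.592% and 0.979%, and Ifi203 at 0.46% and 1.35%. The part of lymphocyte RNA in these differences was not tested.

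Transgenic alpha cells had less Ifit1 and Rsad2 and more Irf1. Of 39 members, 25 had at least 50 UMIs, and 5 of them were at least 1.5-fold lower (3.40% of all 10231 genes) and 1, Ifi27l2a, higher (3.68% of all genes). The median log2 ratio was −0.22, beside 0.01 over all genes. The 5 lower members were Oasl2 with 59 and 33 UMIs (−1.13, −1.79 to −0.49), Dhx58 with 34 and 21 (−0.98, −1.84 to −0.16), Ifit1 with 546 and 353 (−0.92, −1.11 to −0.72), Rsad2 with 326 and 227 (−0.81, −1.06 to −0.56) and Isg15 with 64 and 49 (−0.67, −1.24 to −0.11). The Isg15 level in alpha cells did not lie above the range of the macrophage markers in either library, counting error included. Irf1 had 300 and 526 UMIs, 47.0 and 67.8 CPM, a log2 ratio of 0.52 (0.32 to 0.73). With stricter class thresholds the log2 ratio of Ifit1 was −0.44. Without cells of a strong response (at least 10 UMIs from at least 4 antiviral genes) it was −0.18. Ifit1 is itself among those antiviral genes, so the latter value follows in part from the rule. The label calls the transgene beta cell specific, and its activity in alpha cells was not tested.

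Delta cells showed no common direction. Of 16 members with at least 50 UMIs, 1 was at least 1.5-fold lower (2.78% of all 7298 genes) and 1 higher (3.43% of all genes), and the median log2 ratio was 0.11, beside 0.01 over all genes. The lower one was Rsad2 with 50 and 41 UMIs in 146 and 248 cells (−0.98, −1.62 to −0.36), and the higher one Ifit3 with 39 and 102 (0.69, 0.14 to 1.26). Ifit1 had 174 and 266 UMIs, 130 and 122 CPM (−0.09, −0.37 to 0.20).

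In endothelial cells 8 of 30 members were at least 1.5-fold lower, where 15.9% of all 3372 genes were, and 1 was higher, where 6.11% of all genes were. The median log2 ratio was −0.31, beside −0.13 over all genes, and 26 transgenic cells limit the counts. Oasl1 had 215 and 20 UMIs (−1.57, −2.31 to −0.90), Ifi203 113 and 17 (−0.87, −1.70 to −0.13) and Irf1 231 and 35 (−0.86, −1.42 to −0.35). Ifitm3 had 1742 and 578 UMIs (0.27, 0.13 to 0.40), and a log2 ratio of 0.026 without the cells that hold a macrophage marker UMI. Bst2 had 288 and 108 UMIs (0.44, 0.11 to 0.77). Scaled by total UMIs, the members at least 1.5-fold lower numbered 4 in place of 8.

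The response was uneven from cell to cell. A strong response was taken as at least 10 core UMIs from at least 4 core genes. In the wild type 56 of 69 macrophages met it (81.2%, exact Clopper-Pearson interval 69.9% to 89.6%), and in the transgenic library 30 of 41 (73.2%, interval 57.1% to 85.8%). Core UMIs per macrophage had a median of 65 (0 to 462) in the wild type and 25 (2 to 209) in the transgenic library. Endothelial cells met it in 72 of 103 (69.9%, 60.1% to 78.5%) and 15 of 26 (57.7%, 36.9% to 76.6%). In both classes the intervals of the 2 libraries overlapped.

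In the beta class the rule held for 254 of 3096 cells in the wild type (8.20%, interval 7.26% to 9.23%). The transgenic beta class had 62 such cells of 2506 (2.47%, interval 1.90% to 3.16%), and the intervals did not overlap. Among alpha cells it was 47 of 494 (9.51%, 7.07% to 12.5%) and 15 of 680 (2.21%, 1.24% to 3.61%), again without overlap. Cells of 1 library are not replicates, so these intervals give no test between genotypes. Delta cells met it in 6 of 146 (4.11%, 1.52% to 8.73%) and 13 of 248 (5.24%, 2.82% to 8.80%). Median core UMIs were 3 in wild type and 2 in transgenic beta cells, and the highest cells held 76 and 35. The threshold falls in a continuous range, with 295 wild type and 101 transgenic beta cells at 8 to 12 core UMIs, so these cells are a range and not a type. The strong cells held 30.1% of all core UMIs of wild type beta cells and 12.3% of those of transgenic beta cells. Without them the log2 ratio of Ifit1 in beta cells was −0.81 and that of Rsad2 −0.73. The rule picks cells by their core UMIs, those of Ifit1 and Rsad2 included. These shares and ratios thus follow in part from the rule itself.

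**Figure D4:**
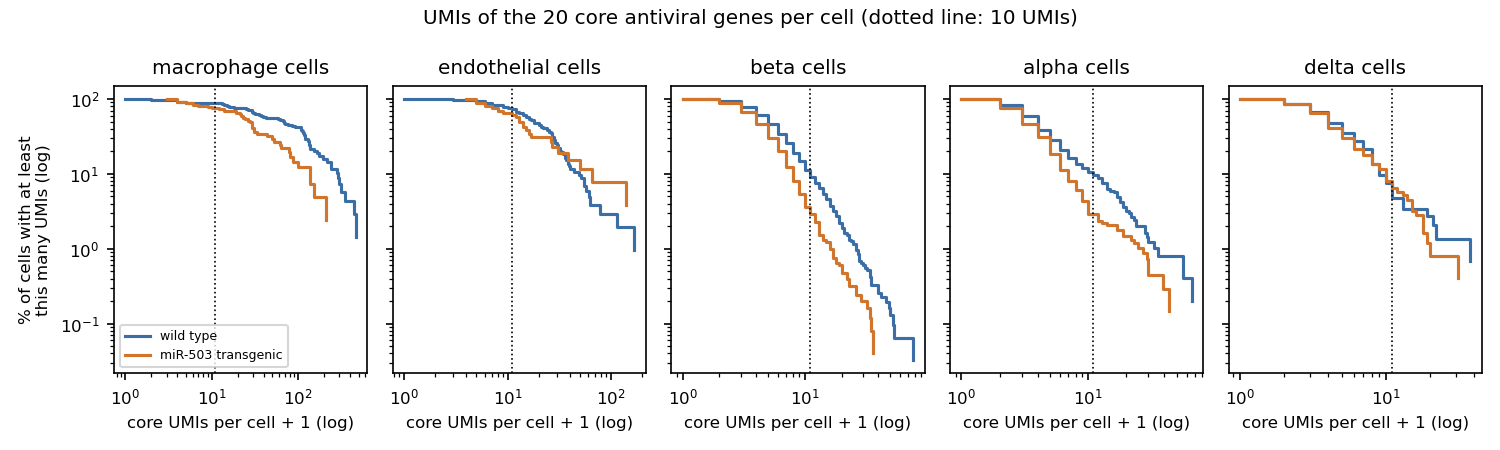
Percent of cells (log axis) that hold at least a given number of core antiviral UMIs (plus 1, log axis) in 5 classes, wild type in blue and transgenic in orange. The wild type curve lies above the transgenic one in beta and alpha cells beyond the dotted line at 10 UMIs, and the curves cross in delta cells.

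Depth differs between cells, so every cell was also thinned to 5000 UMIs outside hormones. After thinning, the rule held for 40 of 3019 beta cells in the wild type (1.32%, interval 0.948% to 1.80%). It held for 5 of 2468 in the transgenic library (0.203%, interval 0.0658% to 0.472%), with 77 and 38 shallower cells left out. Alpha cells gave 2.63% (1.41% to 4.46%) and 0.884% (0.325% to 1.91%), and after thinning these intervals overlapped. Before thinning, strong wild type alpha cells had a median of 15467 UMIs outside hormones, against 11125 in the others. In the transgenic library these medians were 10485 and 10436. Thinned macrophages gave 66.7% and 61.0%, endothelial cells 52.4% and 30.8%, and delta cells 0.685% and 1.61%. A gap between the 2 libraries in beta cells therefore remained at equal depth. Over cells with a Y-linked UMI and no Xist UMI, Rsad2 was at 112 CPM in wild type and 59.9 CPM in transgenic beta cells. It was at 50.5 CPM in 169 transgenic beta cells with Xist and no Y-linked UMI. Cells of the latter kind were compared in the transgenic library only. In transgenic alpha cells, 422 of the former and 65 of the latter kind, Rsad2 was at 36.1 and 14.6 CPM. Ifit1 was at 56.4 and 17.3 CPM there, Ifi27l2a at 12.7 and 13.3 CPM, and the strong share was 2.84% and 0%. Whether sex adds to the differences between the libraries was not tested.

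Members outside the core, which did not enter the rule, were also higher in strong beta cells. Of 14 such members with enough UMIs in the wild type library, 9 were at least 1.5-fold higher in the 254 strong cells than in the other 2842, where 3.49% of all 11892 genes were, and their median fold was 2.15. Xaf1 was at 36.9 against 9.89 CPM, 3.73-fold (3.02 to 4.58), and Parp14 at 88.9 against 25.8 CPM, 3.45-fold (3.02 to 3.93). Irf9 was 2.60-fold (2.17 to 3.10), Eif2ak2 2.44-fold (1.86 to 3.17) and Stat2 2.23-fold (1.67 to 2.92) higher. Irf1 was at 1.23-fold (1.12 to 1.36) and Ifitm3 at 1.06-fold (0.771 to 1.43). The intervals of Stat2 and Irf9, which encode parts of the ISRE-binding complex, lay above that of Irf1 in wild type beta cells. In wild type macrophages, endothelial and alpha cells they overlapped that of Irf1. It was 3.86-fold, 2.17-fold and 2.81-fold higher in the strong cells of these classes.

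In transgenic beta cells 9 of 15 such members were at least 1.5-fold higher in the 62 strong cells, where 8.91% of all genes were, and the median fold was 1.78. Irf9 was 3.36-fold (2.34 to 4.70) and Gbp7 3.17-fold (2.06 to 4.68) higher. Stat2 was at 1.41-fold (0.635 to 2.73) there, an interval that overlapped that of Irf1, at 1.10-fold (0.91 to 1.31). Strong transgenic beta cells were deeper, with a median of 15092.5 UMIs outside hormones against 11536.5 in the others, and in the wild type the medians were 12501.5 and 11483.5. None of 7 macrophage markers was at least 1.5-fold higher in strong wild type beta cells, and their median was 1.01-fold. In the transgenic library 6 of 7 markers were at least 1.5-fold higher, with a median of 1.90-fold, and 1 cell held 83.9% of the Tyrobp UMIs of the strong cells. Whether RNA of macrophages adds to these transgenic cells was not tested.

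**Figure D5:**
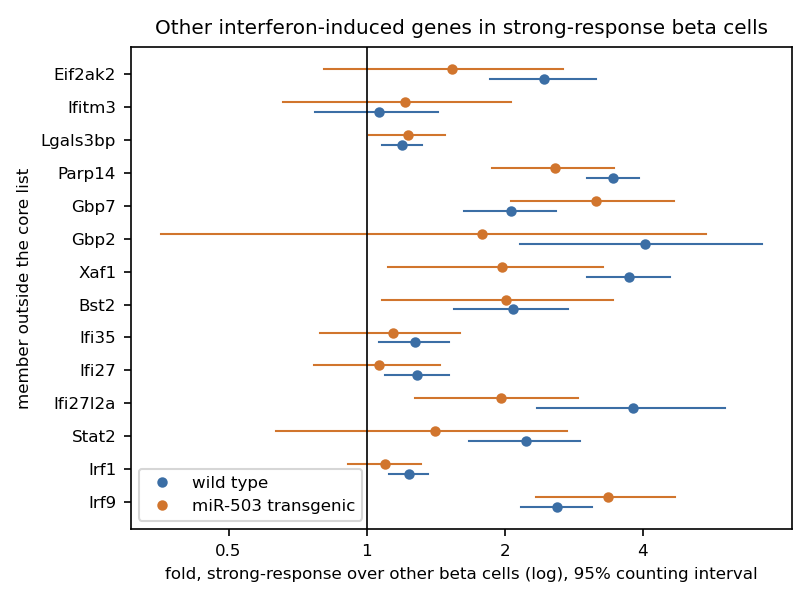
Fold of strong-response over other beta cells (log axis) for members outside the core list with at least 50 UMIs in each library, wild type in blue and transgenic in orange, with 95% counting intervals. Xaf1, Parp14 and Irf9 lie well above 1 in both libraries, while Irf1, Ifi27 and Ifitm3 lie near 1.

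Strong alpha cells gave similar counts. In the wild type 7 of 11 were at least 1.5-fold higher in strong cells, where 13.6% of all genes were, with Parp14 at 5.01-fold (3.82 to 6.55) and Irf9 at 4.24-fold (2.77 to 6.41). In the transgenic library it was 10 of 12, where 16.2% of all genes were, in 15 strong cells. Macrophage markers with enough UMIs were also higher in these 15 cells, 2 of 2 at least 1.5-fold, with a median of 4.52-fold. Cd74 was 7.12-fold (5.98 to 8.44) higher, and 1 cell held 59.2% of its UMIs in the strong cells. In the wild type the 1 marker with enough UMIs was at 0.83-fold. Whether RNA of macrophages adds to these transgenic alpha cells was not tested. Strong wild type macrophages had 15 of 16 members outside the core higher, where 30.5% of all genes were, and Lgals3bp was the exception. Of 8 macrophage markers, 3 were at least 1.5-fold higher in these cells, beside the same 30.5%. Their median was 1.49-fold, and 6 of the 8 intervals lay above 1. The part of macrophage state in these folds was not tested. Xaf1, Ifnb1 and Gbp2 had 92, 82 and 59 UMIs in the strong macrophages and none in the other 13. They were at least 8.19-fold, 7.30-fold and 5.25-fold higher against a floor of 3 UMIs over those 13 cells. All 3 could only count as higher among the 16, as they met the minimum count through the strong macrophages alone. In these macrophages Parp14 was 10.9-fold (3.63 to 53.4) and Ifitm3 11.5-fold (6.19 to 24.1) higher than in the others, and Lgals3bp was at 0.48 of their level (0.34 to 0.67). In strong wild type endothelial cells 10 of 14 were higher, where 20.5% of all genes were, led by Eif2ak2 at 4.93-fold (2.29 to 12.7). Few members outside the core had enough UMIs in the remaining sets. In transgenic macrophages 4 of 7 were higher, where 14.7% of all genes were, and in transgenic endothelial cells 1 of 4, where 19.7% were. In delta cells it was 0 of 4 in the wild type, where 12.8% of all genes were, and 1 of 5 in the transgenic library, where 12.7% were.

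Genes outside the group that stood highest in strong wild type beta cells included close relatives. Ifit3b was 5.50-fold (4.13 to 7.28) higher, Irgm1 3.56-fold (2.85 to 4.41) and Trim12a 6.13-fold (4.20 to 8.87). Cenpa (13.5-fold) and Ube2c (10.7-fold), genes of dividing cells, stood above them but came from 7 and 4 strong cells. In strong wild type alpha cells Gast and Cck stood highest, with 99.4% and 99.9% of their UMIs from 1 cell each. Cxcl10, a chemokine gene that interferon induces, was 3.40-fold (2.88 to 4.01) higher there.

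Members that neighbour each other in the genome did not always move together. Coordinates are from mm10. Rsad2 (chr12:26442746-26456452) and Cmpk2 (chr12:26469204-26479837) lie 12751 bases apart and start away from each other. Their log2 ratios were both −1.55 in macrophages but −0.93 and −0.09 in beta cells. Ifi27 (chr12:103434211-103440239) and Ifi27l2a (chr12:103442167-103443680) lie 1927 bases apart, and their log2 ratios in beta cells were 0.04 and 2.52. Oasl1 and Oasl2, 11005 bases apart on chromosome 5, were at −1.30 and −1.10 in beta cells and at −1.12 and −0.56 in macrophages. The beta level of Oasl1 lay within the range of the macrophage markers. Ifit2 and Ifit3 lie 7111 bases apart on chromosome 19. Reads of near-identical relatives (Ifit3 and Ifit3b, Ifi203 and Ifi204, the Oas1 genes, Gbp2 and its neighbours) may be shared or lost in counting, which makes their values less certain.

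Receptors and signalling genes lie upstream of the members. In beta cells all 19 had at least 50 UMIs, 1 was at least 1.5-fold lower (4.29% of all genes) and 2 higher (5.72% of all genes), and their median log2 ratio was −0.03. Jak1, a kinase of the receptor, had 4661 and 2771 UMIs (−0.47, −0.54 to −0.40) and Stat3 5854 and 3816 (−0.34, −0.40 to −0.28). In macrophages 1 of 14 was lower, Irf8 with 250 and 77 UMIs (−0.74, −1.12 to −0.36), and 1 higher, Socs3 with 316 and 271 (0.74, 0.50 to 0.98). Of all genes there, 11.6% were lower and 10.6% higher. In endothelial cells 2 of 14 were lower (15.9% of all genes) and 2 higher (6.11% of all genes). Socs3 encodes an inhibitor of cytokine signalling and Irf8 a myeloid transcription factor. None of the 8 sensors and adaptors with enough UMIs in beta cells passed the 1.5-fold limit, and Adar, an RNA-editing enzyme, was at −0.43 (−0.56 to −0.30).

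Of 51 other interferon-induced genes, 28 had at least 50 UMIs in macrophages, with a median log2 ratio of −0.38. Of these 28, 8 were lower (11.6% of all genes) and 1 higher (10.6% of all genes). Among them Ifit3b had 283 and 53 UMIs (−1.45, −1.91 to −1.03), while Ly6e had 771 and 431 (0.12, −0.05 to 0.30). In beta cells 43 had enough UMIs, and 6 were lower (4.29% of all genes) and 9 higher (5.72% of all genes). Their median was 0.04, beside −0.32 for the 33 members. Isg20 had 9128 and 6695 UMIs there (−0.17, −0.21 to −0.12) and Ly6e 4661 and 5295 (0.47, 0.41 to 0.52). Cxcl10 had 1883 and 554 UMIs in macrophages (−0.80, −0.94 to −0.67) and 1700 and 1410 in beta cells (0.01, −0.09 to 0.11).

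MHC class I genes present antigen and are also raised by interferons. In transgenic macrophages none of 12 genes was at least 1.5-fold lower, where 11.6% of all genes were. Higher were 2, where 10.6% of all genes were, and the median log2 ratio was 0.39. H2-D1 had 1774 and 1291 UMIs (0.50, 0.40 to 0.61). In endothelial cells 10 of 12 were at least 1.5-fold higher and the median was 0.78, with B2m at 2449 and 1181 UMIs (0.81, 0.70 to 0.91) and H2-K1 at 461 and 285 (1.16, 0.95 to 1.38), where 6.11% of all genes were higher. Macrophage markers in the endothelial class were also higher, at 106 and 1207 CPM of all UMIs over 9 markers. Most of this came from Cd74, at 65.1 and 1096 CPM outside hormone genes. Ctss was at 15.99 and 67.9 CPM outside hormone genes, and Fcer1g, Lyz2, Cd68, Tyrobp and Mrc1 were also higher in the transgenic library. Csf1r and Adgre1 were at 0 in both libraries. The part of macrophage RNA in the MHC values was not tested. In beta cells 1 of 12 was lower (4.29% of all genes) and the median was −0.12. In strong wild type beta cells the 12 genes had a median fold of 1.32 over the other beta cells. Of these, 3 were at least 1.5-fold higher, where 3.49% of all genes were. In strong transgenic beta cells the median was 1.52 with 6 of 12 higher, where 8.91% of all genes were. Strong wild type macrophages had 8 of 10 higher, where 30.5% of all genes were, with a median of 2.04. Strong transgenic macrophages had none of 9 higher, where 14.7% of all genes were, with a median of 0.84.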

How the data were processed

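Single-cell RNA libraries of islets were compared, 1 per genotype. Per the submitters' processing notes the authors used Cell Ranger 2.1.0, STAR 2.5.1b and build mm10. The deposited values are counts, whole UMIs per gene and cell, without normalization. Cells with at least 500 genes, at least 1000 UMIs and at most 10% mitochondrial UMIs were kept, which removed 20 wild type and 15 transgenic barcodes. Scrublet in scanpy 1.11.5 marked only 5 and 4 cells by its own threshold, so the top 4% of scores (181 and 166 cells) were removed. The 4339 and 3977 kept cells had a median of 21493 and 24586 UMIs. Classes follow the marker rules given above, under which 169 and 230 kept cells met several rules and 238 and 178 met none, and these were left out.

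UMIs were summed per class and library and scaled by TMM factors, checked against edgeR 4.0.16, and the ratio code was tested on simulated data. Ratios carry exact conditional binomial 95% intervals, levels exact Poisson intervals and shares exact Clopper-Pearson intervals. They cover counting error only. Python 3.11.15, scipy 1.17.1 and pandas 2.3.3 were used.

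The members, the core list and the other gene lists were chosen with earlier results of these data known. All members with at least 50 UMIs could be named in macrophages and beta cells, the 5 lowest and 5 highest ratios in other classes, up to 6 genes with most UMIs per other list, and the 10 non-members with the highest fold in strong cells. Members named by neighbourhood and Ifi27l2a with the lymphocyte markers were chosen after their values were seen. Alternatives varied the scaling, the minimum count, doublets, the mitochondrial limit, class thresholds, the strong-response threshold, depth, and the cells included.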

Additional observations from a re-analysis of the deposited data

Results flagged for a closer look

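In several members the counting intervals of the transgenic to wild type log2 ratio lay above 0 in one cell class and below 0 in another. Each class has 1 library per genotype, so the difference between classes was not tested. The values below are the log2 ratio in the first class minus that in the second.

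Ifit3 differed by 1.503 between delta cells (0.69) and macrophages (−0.81), and by 1.46 between delta and beta cells (−0.77). Irf1 differed by 1.73 between alpha cells (0.52) and macrophages (−1.20), and by 1.39 between alpha and endothelial cells (−0.86). Ifi203 differed by 2.18 between beta cells (1.30) and endothelial cells (−0.87). Ifi35 differed by 1.16 between alpha cells (0.31) and endothelial cells (−0.85). Usp18 differed by 1.11 between beta cells (0.47) and macrophages (−0.64). Trim30a differed by 2.003 between beta cells (1.41) and macrophages (−0.60). Bst2 differed by 0.76 between endothelial cells (0.44) and beta cells (−0.32). Lgals3bp differed by 1.11 between macrophages (0.98) and beta cells (−0.13), and by 0.32 between alpha cells (0.19) and beta cells. Ifitm3 differed by 0.52 between endothelial cells (0.27) and macrophages (−0.25). As given above, the macrophage value of Lgals3bp fell under the 1.5-fold limit without a single transgenic cell. The endothelial value of Ifitm3 was near 0 without cells that hold a macrophage marker UMI. The wild type beta levels of Ifi203, Trim30a and Ifit3 lie within or below the range of macrophage markers there, and the part of macrophage RNA in these values was not tested.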

How the results depend on the processing

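No paired analysis was possible because each genotype has 1 library and the labels give no replicate numbers. Under the alternatives 130 values of the class medians, counts and strong-response shares stayed within their limits and 25 moved, and the cause was not tested unless stated. Members at least 1.5-fold lower in macrophages were 16 of 35 as reported. They were 7 of 15 with a minimum of 200 UMIs (6.38% of all genes), 10 of 27 over cells with a Y-linked UMI and no Xist UMI (14.1%), and 1 of 4 without strong-response cells (20.6%). There the median was 0.45 over 4 members and Rsad2 turned to 0.072 on 7 UMIs, since 13 and 11 cells were left. In endothelial cells they were 4 of 30 with total UMIs (10.8% of all genes), UMIs outside hormones (10.7%) or stricter classes (15.8%), 5 of 30 with a mean over cells (12.7%), 2 of 9 with a minimum of 200 UMIs (8.59%) and 1 of 5 without strong cells (27.6%). In beta cells scaling by total UMIs gave a median of −0.63 and 17 of 33 members lower (16.6% of all genes), because it moved the median of all genes to −0.33, and leaving out strong cells gave 5 of 33 (4.10%). Alpha cells gave 2 of 15 with a minimum of 200 UMIs (1.26%), 3 of 25 with stricter classes (2.81%) and 1 of 23 without strong cells (3.10%), and delta cells 5 of 22 with a minimum of 20 UMIs (6.04%) and 0 of 5 with 200 (0.394%). Strong cells are picked by core members, so leaving them out removes UMIs of those members by the rule itself. The gap in strong-response beta cells, −5.73 percentage points, was −11.6 at 5 core UMIs, −1.26 at 20, −1.12 after thinning and −4.55 with stricter classes. That in alpha cells, −7.31, was −1.71 at 20 core UMIs, −1.75 after thinning and −3.38 with stricter classes. Without cells holding a macrophage marker UMI, an alternative chosen after seeing the data, the beta median was −0.35 with 9 members lower. Depth left 16 of 39 members with enough UMIs in delta cells, and the median half-width of the members' intervals was 0.77 in endothelial, 0.57 in delta, 0.56 in macrophage, 0.41 in alpha and 0.22 in beta cells (log2).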
